A study of Mus musculus with 2 samples.

Results

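The genes described here are 10 feedback inhibitors of mitogen-activated protein (MAP) kinase signalling, the phosphatase genes Dusp1, Dusp2, Dusp4, Dusp5, Dusp6, Dusp7, Dusp10 and Dusp16 and the Sprouty genes Spry1 and Spry2. They were chosen by name out of 23288 genes, with earlier results of these data known, and each had 1 line in the deposited tables. Gene and upstream levels of the same libraries were known when the set was put together, so its counts and medians describe these genes and support no statement about the set. RNA came from splenic B cells of fetal liver chimeric mice, animals whose blood system was rebuilt from transplanted fetal liver. The first group was Nedd4-/- and the second Nedd4+/+, with 1 library each, both on a mixed B6 and 129 background backcrossed to B6. Nedd4 encodes a ubiquitin ligase. Both cultures received LPS, a bacterial product that activates B cells through Toll-like receptor 4, together with the cytokine IL-4 for 72 hours, conditions under which B cells switch to IgG1. The RNA was depleted of ribosomal RNA before sequencing. The labels name neither the number of animals behind a library nor the host cells that remained in the chimeras.

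MAP kinases carry signals from antigen, cytokine and Toll-like receptors to the nucleus. The ERK branch is activated through Ras, RAF and MEK, and the JNK and p38 branches through stress- and LPS-responsive kinases. MAP kinase phosphatases switch these kinases off by removing phosphate from both the threonine and the tyrosine of the activation loop. Many of their genes are themselves switched on by the kinases they restrain, which makes a negative feedback loop. Sprouty proteins act further up and dampen the signal between receptor and RAF.

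With 1 library a genotype no test of genotype was possible, and every difference below lies between these libraries only. Read depth, recovered from the values, was 6.17 gigabases for Nedd4-/- and 8.40 gigabases for Nedd4+/+, of which 24.4% and 32.6% lay in transcripts of known length. Nedd4 itself stood at 1.95 RPKM in Nedd4-/- cells and 7.59 RPKM in Nedd4+/+ cells, where RPKM is the number of reads scaled to transcript length and library size. The libraries also differed in sex-linked RNA. Xist, which is expressed from an inactive X chromosome, was at 0.0958 RPKM in Nedd4-/- cells and 23.7 RPKM in Nedd4+/+ cells, and the Y-linked gene Ddx3y was at 10.6 and 2.63 RPKM in the same order. The Nedd4+/+ library thus held RNA of both Xist and Y-linked genes, and the labels do not say whether animals were pooled. Genotype, sex, a mixture of animals or cells, and library cannot be told apart in any value below. The B cell label was checked on 10 markers, of which 9 had a mean of 1 RPKM or more, with summed levels of 428 RPKM in Nedd4-/- and 548 RPKM in Nedd4+/+ cells. Of 10 T cell markers 1 reached that mean (Lck), as did 0 of 11 myeloid and 0 of 9 natural killer markers, 2 of 8 erythroid markers (Hba-a1 and Hba-a2) and 1 of 9 stromal and endothelial markers (Pecam1). In Nedd4-/- and Nedd4+/+ cells the summed levels were 4.0 and 2.84 RPKM for the T cell list, 5.07 and 3.25 for the myeloid, 2.42 and 1.22 for the natural killer, 4.64 and 6.20 for the erythroid, and 3.26 and 3.14 for the stromal list. No marker of these 5 lists exceeded 2.15 RPKM in either library. The part of these cells in the results was not tested.

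Dusp4 and Dusp5, which encode nuclear MAP kinase phosphatases, had the 2 lowest folds of Nedd4-/- over Nedd4+/+ cells in the set. Dusp4 was at 0.447 of its level in Nedd4+/+ cells and Dusp5 at 0.465. Dusp2 and Dusp1, the other nuclear and inducible members, were close to equal in both libraries. Dusp6, Dusp7, Dusp10 and Dusp16 lay between 0.632 and 0.854, around the median of all genes. Spry1 and Spry2 stayed below 0.5 RPKM in both libraries. In bulk RNA fewer cells of a kind and less RNA per cell cannot be told apart.

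A gene was compared here where its mean was 1 RPKM or more, which held for 9405 genes and for 8 of the 10 members, all but the Sprouty genes. The ratio used was log2((Nedd4-/- + 1)/(Nedd4+/+ + 1)) in RPKM, which understates differences of low genes. Of all genes compared, 1.15% were lower in Nedd4-/- cells by 2-fold or more, 0.138% were higher by as much, and 1.29% passed the limit in either direction. Their median log2 ratio was -0.31, so that the typical gene stood lower in Nedd4-/- cells, with a median fold of 0.764. A relative value below is a log2 ratio minus this median. Of the 8 members 1 was at least 2-fold lower, Dusp4, and 0 were at least 2-fold higher. The median log2 ratio of the 8 was -0.29, close to that of all genes, and 4 members stood above that of all genes and 4 below. Relative to that median 0.223% of all genes were at least 2-fold lower and 0.276% higher, but 0 of the 8 members were in either group. With 0.1 RPKM added in place of 1, 2 members were at least 2-fold lower, Dusp4 and Dusp5. Just inside the 2-fold limit lay Dusp4 at a log2 ratio of -1.02, and just outside it Dusp5 at -0.88.

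**Figure D1:**
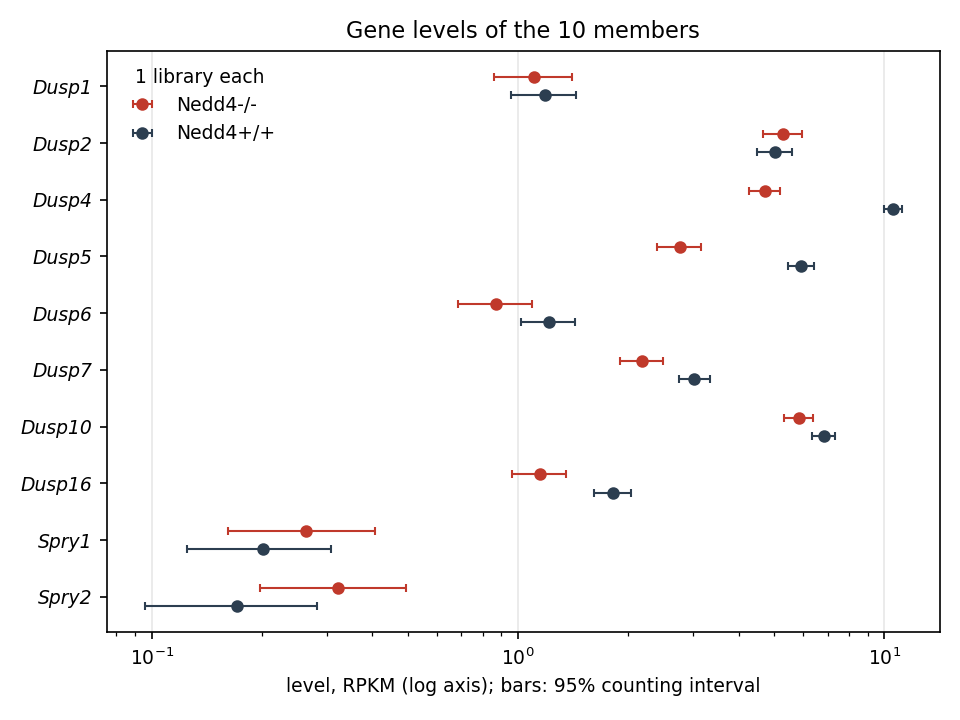
Gene level of each of the 10 members in RPKM (horizontal log axis) in the Nedd4-/- library (red) and the Nedd4+/+ library (dark), 1 library each, with bars for the exact 95% counting interval. Dusp4 and Dusp5 show the widest separation, at 4.71 against 10.5 RPKM and 2.76 against 5.93 RPKM. The bars of Dusp7 and Dusp16 are also apart, while those of Dusp1 and Dusp2 overlap. The Sprouty genes lie under 0.5 RPKM.

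Dusp4 encodes MKP-2, a nuclear phosphatase of ERK, JNK and p38. Its level was 4.71 RPKM in the Nedd4-/- library, against 10.5 RPKM in the Nedd4+/+ library, from 394 and 1202 read pairs. The fold was 0.447, with an exact 95% counting interval of 0.398 to 0.501, an interval that covers counting error only and not the spread between cultures. The median fold of all genes lay above this interval. Its log2 ratio of -1.02 was -0.70 relative to the median of all genes, and 98 of the 9405 genes (1.04%) had a lower one.

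Dusp5 encodes a nuclear phosphatase that acts on ERK. It was at 2.76 RPKM in Nedd4-/- cells and 5.93 RPKM in Nedd4+/+ cells, from 208 and 610 read pairs. The fold of 0.465 had a counting interval of 0.395 to 0.545, which overlaps that of Dusp4. Its upper end also overlaps the interval of Dusp16, 0.513 to 0.775. Its log2 ratio of -0.88 was -0.57 relative to the median, and 205 genes (2.18%) had a lower one. An antisense transcript, AC137853.2, overlaps the start of Dusp5 in GENCODE M21, and without a stated strand setting reads of the pair cannot be told apart.

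Dusp2 encodes PAC-1, a nuclear phosphatase first known from activated lymphoid cells. Its level was 5.29 RPKM in Nedd4-/- and 5.02 RPKM in Nedd4+/+ cells, a fold of 1.05 (counting interval 0.892 to 1.24). Its log2 ratio of 0.06 exceeded that of 95.2% of all genes compared and was 0.38 relative to the median, the highest of the 8 members compared. The median fold of all genes lay below the interval of Dusp2, alone among these 8.

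Dusp1 encodes MKP-1, which in mouse macrophages restrains p38 and JNK after LPS. It was at 1.11 RPKM in Nedd4-/- cells and 1.18 RPKM in Nedd4+/+ cells. The fold of 0.938 had a counting interval of 0.677 to 1.29, which holds both equality and the median fold of all genes. Its 67.3 and 97.6 read pairs allow no finer statement. The nuclear inducible group as a whole summed to 13.9 RPKM in Nedd4-/- and 22.7 RPKM in Nedd4+/+ cells, and the difference came from Dusp4 and Dusp5.

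Short stretches of promoter are shown for 3 of these genes, Dusp5 as a lower member and Dusp2 and Dusp1 as members near equality, because SRF and CREB are known factors through which MAP kinases act on early genes. The sequences are from RefSeq, build GRCm38.p6, and run 5′ to 3′ on the strand of the gene from base 250 to base 51 before the start. The Dusp5 stretch is chr19:53528895-53529094 on the plus strand. The Dusp2 stretch is chr2:127335909-127336108 on the plus strand, and the Dusp1 stretch is chr17:26508523-26508722 on the minus strand. Capitals mark the 2 adjoining CArG boxes, the element bound by SRF, and the CRE core (TGACG, here read on the other strand) in Dusp5, the E-box (CACGTG) in Dusp2 and the full CRE (TGACGTCA, the element bound by CREB) in Dusp1.
Dusp5: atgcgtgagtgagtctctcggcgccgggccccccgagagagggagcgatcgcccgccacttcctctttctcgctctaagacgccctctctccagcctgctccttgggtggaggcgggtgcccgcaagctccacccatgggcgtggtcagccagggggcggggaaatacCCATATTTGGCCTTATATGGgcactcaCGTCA
Dusp2: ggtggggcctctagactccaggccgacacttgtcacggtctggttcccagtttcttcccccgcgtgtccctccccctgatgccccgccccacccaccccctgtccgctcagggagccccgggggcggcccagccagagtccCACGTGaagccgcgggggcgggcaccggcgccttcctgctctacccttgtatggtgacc
Dusp1: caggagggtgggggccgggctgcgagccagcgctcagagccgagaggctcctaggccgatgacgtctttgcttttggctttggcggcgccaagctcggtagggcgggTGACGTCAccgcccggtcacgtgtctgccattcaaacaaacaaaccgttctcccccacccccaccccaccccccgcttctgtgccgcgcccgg

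Motifs were searched on both strands in the 250 bases before the start, for 9 of the 10 members with a promoter at hand, and in 32851 promoters in all. No promoter of Dusp4 was at hand, so Dusp4 was not searched. A CArG box was in 1 of the 9, Dusp5, against 1.47% of all promoters, and its 2 copies began 82 and 72 bases before the start. The full CRE was in 1 of the 9, Dusp1, against 1.55%. The CRE core TGACG, which the full CRE contains, was in 3, Dusp1, Dusp5 and Dusp16, against 17.8%. The E-box was in 2, Dusp1 and Dusp2, against 6.02%, and the GC box (GGGCGG) in 6 of the 9 against 32.7%. The AP-1 site (TGACTCA), the TATA box (TATAAA) and the ETS core (CCGGAA) were in 0 of the 9 against 4.46%, 12.4% and 12% of all promoters. A match is a description of letters and not a binding site.

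Dusp6 and Dusp7 encode the cytoplasmic phosphatases of ERK, MKP-3 and its close relative. Dusp6 was at 0.870 RPKM in the Nedd4-/- library and 1.21 RPKM in the Nedd4+/+ library, a fold of 0.717 (counting interval 0.534 to 0.957). Dusp7 was at 2.18 RPKM in Nedd4-/- and 3.03 RPKM in Nedd4+/+ cells, a fold of 0.720 (0.607 to 0.852). Both intervals lie below equality and hold the median fold of all genes, and the relative log2 ratios were 0.07 for Dusp6 and -0.03 for Dusp7. Dusp6 is widely read as a gauge of ERK activity. It was the lowest of the 8 phosphatase genes in Nedd4-/- cells and the next to lowest in Nedd4+/+ cells. In both libraries the counting interval of its level overlapped that of Dusp1, so the order of Dusp6 and Dusp1 is not resolved.

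Dusp10 and Dusp16 encode MKP-5 and MKP-7, which act on JNK and p38. Dusp10 was at 5.83 RPKM in Nedd4-/- cells and 6.83 RPKM in Nedd4+/+ cells, a fold of 0.854 (counting interval 0.762 to 0.956) from 497 and 792 read pairs. Dusp16 was at 1.15 RPKM in Nedd4-/- cells and 1.81 RPKM in Nedd4+/+ cells, a fold of 0.632 (0.513 to 0.775). Gm36328 overlaps Dusp16 on the opposite strand in GENCODE M21, so reads of that pair cannot be told apart either. The relative log2 ratios were 0.12 for Dusp10 and -0.08 for Dusp16, and both intervals hold the median fold of all genes. The sum of the pair was 6.98 RPKM in Nedd4-/- and 8.64 RPKM in Nedd4+/+ cells, or 28.5% and 24.0% of the summed level of the set.

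Spry1 and Spry2, inhibitors of Ras and ERK signalling downstream of receptor tyrosine kinases, had the lowest levels of the set. Spry1 was at 0.264 RPKM in the Nedd4-/- library and 0.201 RPKM in the Nedd4+/+ library, from 20.0 and 20.8 read pairs. Gm42922 overlaps Spry1 on the opposite strand, with the same limit. Spry2 was at 0.321 RPKM in Nedd4-/- and 0.171 RPKM in Nedd4+/+ cells, from 20.5 and 14.8 read pairs. The folds of 1.31 (counting interval 0.672 to 2.54) and 1.88 (0.917 to 3.94) both include equality. The 11 myeloid markers, genes of other blood cells, had medians of 0.367 RPKM in Nedd4-/- and 0.210 RPKM in Nedd4+/+ cells, and the 9 natural killer markers 0.220 and 0.0737 RPKM, so the Sprouty levels were in the range of genes that these cells are not known for. All 5490 genes with a mean from 0.2 to 0.5 RPKM had a median log2 ratio of 0.18, against 0.07 for Spry1 and 0.17 for Spry2. The Sprouty values are therefore not read as a difference.

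**Figure D2:**
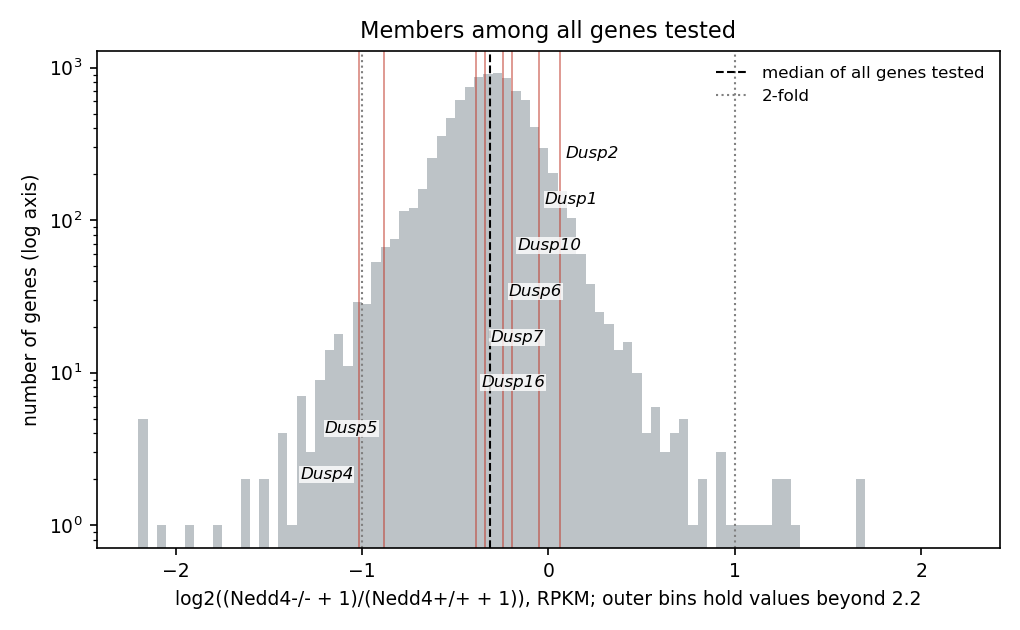
Number of genes (vertical log axis) by log2 ratio of Nedd4-/- over Nedd4+/+ with 1 RPKM added, for the 9405 genes compared, with red lines at the 8 members compared, a dashed line at the median of -0.31 and dotted lines at 2-fold. Dusp4 and Dusp5 lie in the lower tail, Dusp1 and Dusp2 on the upper side, and the other 4 members near the median.

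The log2 ratio also depended on how high a gene was, so each member was set beside genes of like level. Genes with a mean from 5 to 10 RPKM had a median log2 ratio of -0.36. Against this, Dusp4 was lower by a log2 difference of -0.65, while Dusp10 stood 0.16 and Dusp2 0.42 above. Genes from 2 to 5 RPKM had a median of -0.29, from which Dusp5 differed by -0.60 and Dusp7 by -0.06. Genes from 1 to 2 RPKM had a median of -0.17, and there Dusp1 differed by 0.12, Dusp6 by -0.08 and Dusp16 by -0.22. Dusp4 and Dusp5 thus remained the furthest below genes of their own level, by nearly equal amounts.

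The order of the levels differed between the libraries. In Nedd4-/- cells Dusp10 was the highest of the set, followed by Dusp2 and Dusp4, and each neighbour in this order overlapped the next in its counting interval. In Nedd4+/+ cells Dusp4 was the highest, and its interval of 9.96 to 11.2 RPKM did not overlap that of Dusp10, which came next at 6.36 to 7.32 RPKM. Dusp10 overlapped Dusp5, and Dusp5 overlapped Dusp2. Below these, Dusp7 and Dusp16 followed in that order in both libraries. Dusp1 and Dusp6 overlapped each other in both libraries, as did the Sprouty genes at the bottom.

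Dusp4 made up 19.25% of the summed RPKM of the 10 genes in Nedd4-/- cells and 29.4% in Nedd4+/+ cells, and Dusp2 made up 21.6% and 14.0%. The sum of the set was 24.5 RPKM in Nedd4-/- and 35.9 RPKM in Nedd4+/+ cells, a fold of 0.681. Without Dusp4 and Dusp5 the other 8 genes summed to 17.0 and 19.5 RPKM, a fold of 0.874. Ratios of genes within a library do not depend on how the library was scaled. The ratio of Dusp4 to Dusp2 was 0.891 in Nedd4-/- and 2.10 in Nedd4+/+ cells, and that of Dusp5 to Dusp2 was 0.522 and 1.18. Dusp2 had the highest log2 ratio of the members compared, so these ratios show the widest contrast. With other members below the line the contrast was smaller. The ratio of Dusp4 to Dusp10 was 0.808 in Nedd4-/- and 1.54 in Nedd4+/+ cells, and that of Dusp4 to Dusp7 was 2.16 and 3.48. The ratio of Dusp4 to Dusp5 was nearly equal, 1.71 in Nedd4-/- and 1.78 in Nedd4+/+ cells.

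The other deposited measurement covers the 1 kb before each gene start. It was recovered in RPKM from the deposited ratio of this window to the gene. A window was compared from a mean of 0.2 RPKM, which kept 11837 windows, 8 of them of members, with 0.1 RPKM added to each level. At most genes the level before the start was higher in Nedd4-/- cells, with a median log2 ratio of 0.41. Of all windows 0.794% were lower in Nedd4-/- cells by 2-fold or more and 19.8% higher by as much, 20.6% together. Of the 8 member windows 1 was at least 2-fold lower, that of Dusp4, and 1 at least 2-fold higher, that of Dusp1. The median log2 ratio of the 8 was 0.41, equal to that of all windows at this precision. Relative to the median of all windows 5.68% were at least 2-fold lower and 6.5% higher, and of the members 1, Dusp4, was lower and 0 were higher.

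The window of Dusp4 was at 1.36 RPKM in Nedd4-/- cells, against 4.19 RPKM in Nedd4+/+ cells, from 41.6 and 174 read pairs. The fold was 0.325 with a counting interval of 0.226 to 0.458. Its log2 ratio of -1.55 was the seventh lowest of all 11837 windows compared, with 6 below it. The window was the highest of the 10 in both libraries. Of 7158 genes compared at both levels, 10 (0.14%) were at least 2-fold lower in the gene and in the window, and Dusp4 was 1 of them. In GENCODE M21 (GRCm38) a Dusp4 transcript begins within 1 kb before the RefSeq start, so part of the window is transcribed sequence of Dusp4 in that annotation, and the values of gene and window are not independent. The window was at 28.9% of the gene's level in Nedd4-/- and 39.7% in Nedd4+/+ cells.

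The window of Dusp5 was at 0.830 RPKM in Nedd4-/- cells and 1.02 RPKM in Nedd4+/+ cells, a fold of 0.816 whose counting interval, 0.478 to 1.37, includes equality. Its log2 ratio was -0.26, with 1888 of all windows lower. Together with Dusp4 it was 1 of the 2 member windows with a lower level in Nedd4-/- cells. The antisense transcript AC137853.2 and a GENCODE start of Dusp5 itself lie in this window.

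The windows of the other 8 genes were higher in the Nedd4-/- library. That of Dusp1 was at 0.530 RPKM in Nedd4-/- and 0.177 RPKM in Nedd4+/+ cells, a fold of 2.99 (counting interval 1.18 to 8.37) from 16.2 and 7.37 read pairs. Dusp10 had 0.863 and 0.463 RPKM in that order, Dusp7 0.609 and 0.313 RPKM, and Dusp2 0.793 and 0.571 RPKM. The windows of Dusp6, Dusp16, Spry1 and Spry2 ranged from 0.209 to 0.423 RPKM in Nedd4-/- and from 0.0372 to 0.341 RPKM in Nedd4+/+ cells. Dusp1 was alone among these 8 in having a counting interval above equality. Equality was not typical of windows, whose median log2 ratio was 0.41. The log2 ratio of the Dusp1 window, 1.18, was 0.77 relative to that median, and 87.4% of all windows compared had a lower one. A single read pair is worth 0.0328 RPKM in a window of the Nedd4-/- library and 0.0241 RPKM in one of the Nedd4+/+ library.

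A difference that most genes shared stands beside these values. The median difference of Nedd4-/- minus Nedd4+/+ was between 0.0774 and 0.111 RPKM upstream of genes in each level class that holds a member. The member differences were 0.353 RPKM for Dusp1, 0.400 for Dusp10, 0.297 for Dusp7, 0.222 for Dusp2, and 0.0821 to 0.176 RPKM for Dusp6, Dusp16, Spry1 and Spry2, against -2.83 RPKM for Dusp4 and -0.19 RPKM for Dusp5. The windows of Dusp10 and Spry1 hold other genes on the opposite strand, 1700056E22Rik and Gm42922. GENCODE starts of Dusp1 lie in its window, and 1 GENCODE transcript of Dusp10 itself runs over the window of Dusp10. The part of these transcripts in the levels was not tested.

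**Figure D3:**
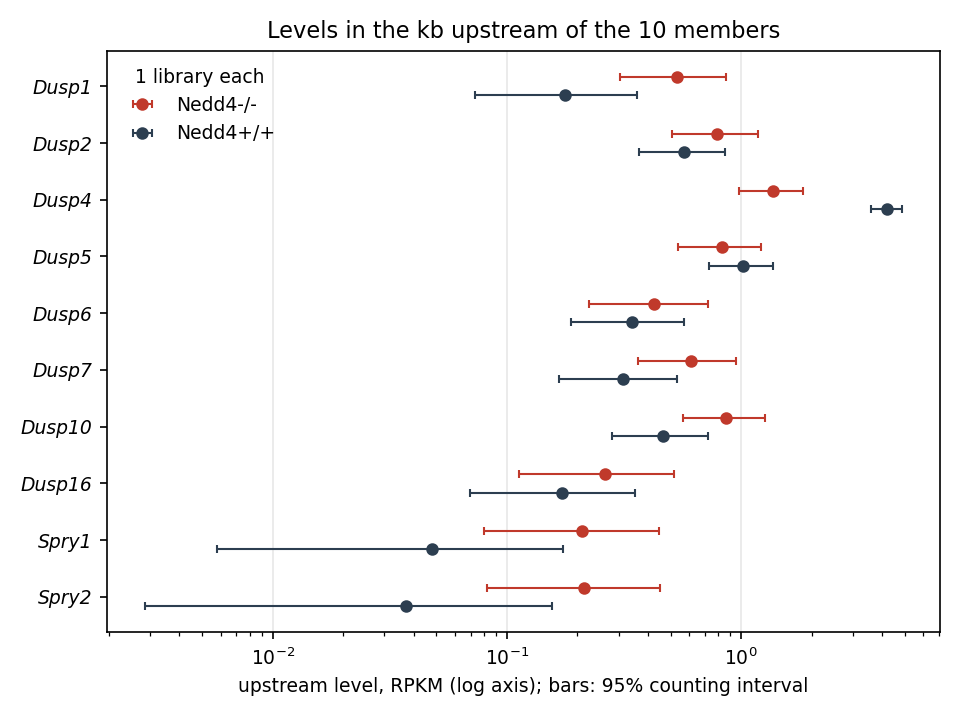
Level in the kb upstream of each member in RPKM (horizontal log axis) in the Nedd4-/- library (red) and the Nedd4+/+ library (dark), 1 library each, with bars for the exact 95% counting interval. The window of Dusp4 is the highest and the one that is clearly lower in Nedd4-/- cells, 1.36 against 4.19 RPKM, whereas 8 of the 10 windows are higher there.

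**Figure D4:**
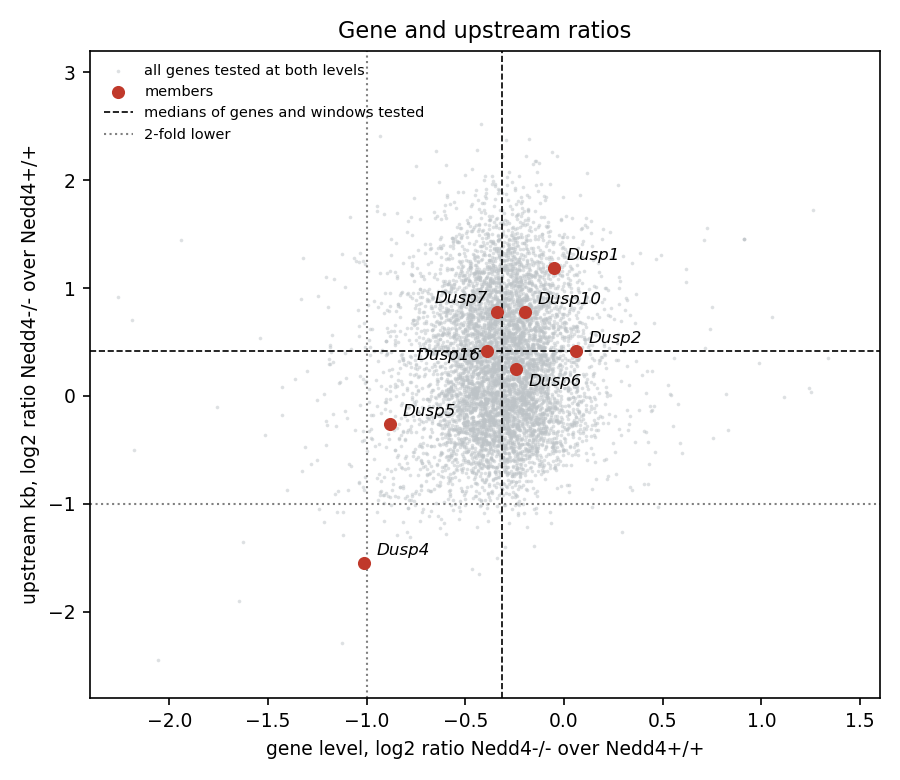
Log2 ratio of the upstream kb with 0.1 RPKM added (vertical axis) against log2 ratio of the gene with 1 RPKM added (horizontal axis), Nedd4-/- over Nedd4+/+, for the 7158 genes compared at both levels in grey, of which 2 lie outside the axes, and the 8 members in red. Dashed lines mark the medians and dotted lines 2-fold lower. Dusp4 is at -1.02 and -1.55, in the sparse lower left corner, and Dusp5 is at -0.88 and -0.26.

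The rest of the pathway was read from 10 lists with 142 genes found, of which 98 had a mean of 1 RPKM or more. Of the 98, 0 were at least 2-fold lower and 0 at least 2-fold higher, against 1.15% and 0.138% of all genes, and 46 had a log2 ratio above and 52 one below that of the median gene. With 0.1 RPKM added in place of 1, 2 of the 98 were at least 2-fold lower, Dusp22 and the transcription factor gene Ets1. Their median log2 ratio was -0.33, against -0.31 for all genes. Among the JNK and p38 genes compared, Mapk11 and Mapk14 had log2 ratios slightly under that of the median gene, at -0.07 and -0.10 relative to it. Their folds had counting intervals of 0.519 to 0.836 and 0.629 to 0.797, which hold the median fold of all genes, 0.764. Mapk8 and Mapk9 had ratios over it, at 0.29 and 0.27 relative to the median. Mapk8 and Mapk9, the genes of JNK1 and JNK2, were at 2.30 and 3.43 RPKM in Nedd4-/- cells, against 2.36 and 3.55 RPKM in Nedd4+/+ cells. Mapk14, the gene of p38 alpha, was at 3.97 RPKM in Nedd4-/- and 5.60 RPKM in Nedd4+/+ cells. Mapk11, another p38 gene, was at 1.42 RPKM in Nedd4-/- and 2.15 RPKM in Nedd4+/+ cells.

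Upstream of ERK, the 12 genes of Ras and its exchange factors that were compared had a median of -0.32, with 6 above and 6 below the median of all genes. Hras1 was at -0.10, Rras2 at -0.22 and Nras at -0.46. Of 7 Ras GTPase-activating proteins, which switch Ras off, 6 lay above that median, and the furthest, Rasa3, lay below it at 10.1 RPKM in Nedd4-/- and 18.0 RPKM in Nedd4+/+ cells (-0.77). The 14 RAF, MEK and ERK kinases and scaffolds had a median of -0.33. The scaffold genes Lamtor3 at 0.10 and Ksr1 at -0.04 were above the median of the list, and Iqgap1 at -0.59 was below it. Spred1, a Sprouty-related inhibitor of RAF activation, was the 1 gene compared of 3 further Sprouty and Spred genes. It stood at 3.19 RPKM in Nedd4-/- and 3.29 RPKM in Nedd4+/+ cells (log2 ratio -0.03), well above the levels of Spry1 and Spry2.

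In the JNK and p38 branch 18 genes had a median of -0.37, with 7 above and 11 below the median of all genes. Map3k1, a kinase that activates the JNK pathway, was the furthest at 6.81 RPKM in Nedd4-/- and 13.4 RPKM in Nedd4+/+ cells (-0.88). Map3k3 was at -0.61 and Map2k6, an activator of p38, at -0.02. The 8 kinases downstream of MAP kinases had a median of -0.34, with 4 above and 4 below the median of all genes. The furthest below it were Rps6ka1 at -0.64 and Mapkapk2 at -0.49. The 9 other phosphatases that act on MAP kinases had a median of -0.42, with 3 above and 6 below the median of all genes. The furthest below it were Ppm1b, a serine and threonine phosphatase, at -0.67 and Ptpn7. Ptpn7, a tyrosine phosphatase of ERK and p38 in blood cells, was at 7.49 RPKM in Nedd4-/- and 11.4 RPKM in Nedd4+/+ cells (-0.55).

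The transcription factors that carry MAP kinase signals to genes had a median of -0.29 over 15 genes, with 8 above and 7 below the median of all genes. Ets1 was the furthest of all 98 pathway genes at 12.3 RPKM in Nedd4-/- and 25.5 RPKM in Nedd4+/+ cells, a log2 ratio of -0.99 (-0.68 relative). Etv3, an ETS repressor gene, was at -0.66. Srf, whose product binds the CArG box, was at 3.30 and 5.35 RPKM in that order (-0.56), and its partner gene Mkl2 was at -0.07. The ERK-responsive early genes had a median of -0.41 over the 7 that were compared of 20. Zfp36, which encodes an mRNA decay factor, was at -0.61, Ier2 at -0.57, Egr2 at -0.19 and the activation marker gene Cd69 at -0.03.

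**Figure D5:**
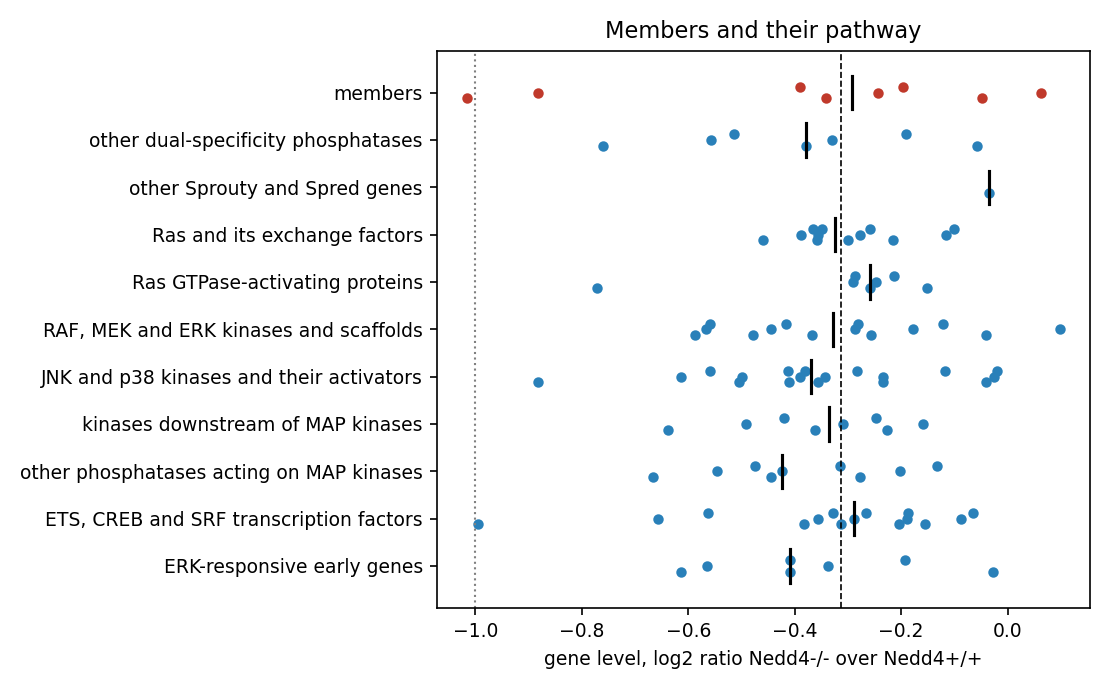
Log2 ratio of Nedd4-/- over Nedd4+/+ with 1 RPKM added (horizontal axis) for each gene with a mean of 1 RPKM or more in the 8 members (red) and 10 pathway lists (blue), with a black bar at the median of each list, a dashed line at the median of all genes and a dotted line at 2-fold lower. Dusp4 at -1.02 is the 1 point past 2-fold, and Ets1 at -0.99 is the nearest outside it.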

How the data were processed

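Per the submitters' processing notes, TopHat, Cufflinks and mouse build mm9 were used, with no versions or roles. The sources used here give no strand or counting settings. The authors deposited RPKM for genes, per the file headers, with 1 RefSeq transcript on each line. The deposited upstream column was read as a ratio of the window's level to the gene's RPKM plus 0.0001, since their product gave whole read bases (within 0.05) in 100% of 12512 low windows of the Nedd4-/- and 99.99% of 16819 of the Nedd4+/+ library. That product is the upstream level. The same steps gave the depth. The most common window counts were multiples of 202 bases, taken as a read pair. Numbers of pairs use transcript lengths from GENCODE M21 (GRCm38), known for 22622 genes.

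Counting intervals at 95% are exact Poisson for levels and exact Clopper-Pearson for folds, and folds have no pseudocount. They hold counting error alone, because PCR copies cannot be told from separate molecules here. The ratio code was tested on simulated read pairs. Members, lists, thresholds and the naming rule (all members, Nedd4, and up to 4 genes per list with the widest relative log2 ratio at a mean of 1 RPKM or more) were chosen with earlier results of these data known. Mapk9, Mapk11, Mapk14, Dusp8 and Dusp9 were named besides, after their values were seen. So were the sex-linked genes, the markers that passed and the genes lower at both levels. Of the genes that the rule names, 2 are not reported here. Python 3.11.15, pandas 2.3.3 and scipy 1.17.1 were used. GRCm38 served for names, neighbours, lengths and promoters, and no coordinate was carried over to mm9.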

Additional observations from a re-analysis of the deposited data

How the results depend on the processing

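Of the 8 members compared, the number at least 2-fold lower was 1 as reported. It was 2 with 0.1 RPKM added or a limit of 1.5-fold, and 0 with 5 RPKM added, relative to the median of all genes, or rescaled to read bases in known transcripts. Dropping the minimum, or raising it to 5 RPKM, left 1. No member was past the limit in the other direction under these settings. The median log2 ratio of the members, -0.29, was 0.021 relative to the median of all genes and -0.034 after rescaling. Over all genes, 121 past 2-fold became 254 with 0.1 RPKM added, 32 with 5 RPKM added, 47 relative to the median (21 lower and 26 higher, against 108 and 13), 46 after rescaling and 1125 at 1.5-fold. Dusp4 had a log2 ratio of -0.70 relative to the median and -0.65 after rescaling, and Dusp5 -0.57 and -0.55. A shift was counted as small where it stayed within the distance from the middle of the log2 counting interval to its end. Of 40 alternative log2 ratios of the member genes 27 had a small shift and 13 a larger one. For the member windows the numbers were 38 and 2. Their counting intervals are wide, so large shifts also count as small there. The log2 ratio of the Dusp1 window went from 1.18 to 0.38 with 1 RPKM added and still counted as small. The numbers for windows and genes therefore do not show which of them is steadier.

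Of the member windows, 2 were past 2-fold as reported. The number was 1, Dusp4, with 1 RPKM added, relative to the median of all windows, or with a minimum of 1 RPKM, under which 1 window was compared. It was 4 without a minimum level, and 1, Dusp1, with the deposited ratio as it stands, where Dusp4 was at -0.35 because its gene level is lower too. Over all windows, 2437 became 3663 with 0.02 RPKM added, 14 with 1 RPKM added, 1441 relative to the median, 4607 without a minimum and 48 with a minimum of 1 RPKM. No paired analysis was possible because each genotype has 1 library. Leaving out a library was not possible either. Depth limits the Sprouty genes and the member windows, which, except for Dusp4 in both libraries and Dusp5 in Nedd4+/+, rest on fewer than 30 read pairs.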

Other observations

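The dual-specificity phosphatases outside the set, many of which act on substrates other than MAP kinases, gave 7 genes out of 18 that reached a mean of 1 RPKM, with 2 above and 5 below the median of all genes and 0 past 2-fold. Dusp22, a phosphatase linked to JNK signalling, stood at 1.72 RPKM in Nedd4-/- and 3.60 RPKM in Nedd4+/+ cells, a fold of 0.477 with a counting interval of 0.350 to 0.642 and a log2 ratio of -0.76. Dusp11, which acts on RNA, was at 6.28 and 9.71 RPKM in the same order (-0.56), and Dusp19 was at 1.87 and 3.10 RPKM (-0.51). Styx, a catalytically inactive relative, was at 4.01 and 4.21 RPKM (-0.06). Dusp8 and Dusp9, which also encode MAP kinase phosphatases, were at 0.30 and 0.0756 RPKM in Nedd4-/- cells and at 0.249 and 0.292 RPKM in Nedd4+/+ cells.

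Besides Dusp4, 9 genes were at least 2-fold lower in Nedd4-/- cells both in the gene and in the upstream kb, named after their values were seen. They were Batf3, Sla, Lmo2, Ckap4, Txndc5, 1810046K07Rik, Gm684 and the microRNA genes Mir5114 and Mir704. Batf3, a transcription factor gene of the AP-1 family, was at 1.29 RPKM in Nedd4-/- and 6.17 RPKM in Nedd4+/+ cells, and its window at 0.148 and 0.828 RPKM. Lmo2, a transcriptional cofactor gene, was at 16.2 and 37.1 RPKM in the same order, and its window at 0.762 and 1.72 RPKM. Windows of 2-fold lower level were found in 70 of the 7158 genes compared at both levels.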
